A study of Homo sapiens with 9 samples.

Results

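The genes examined were 10 regulators of the G1 phase of the cell cycle, chosen by symbol: the D-type cyclins CCND1, CCND2 and CCND3, their kinase CDK6, the E-type cyclins CCNE1 and CCNE2, the CIP/KIP inhibitors CDKN1A, CDKN1B and CDKN1C, and the INK4 inhibitor CDKN2C. They are 10 of the 16199 genes listed in at least 1 library, and 9 of them were among the 12394 genes that passed the count filter and were tested. CDKN1C did not pass it. The cells were HaCaT keratinocytes, an immortalized human epidermal line of wild-type genotype per the labels. Every group was grown in serum-containing DMEM and treated after the cells had become confluent. Untreated cells received serum-free medium. Another group received epidermal growth factor (EGF) at 10 nM for 24 h, and the last group received bleogen pB1 at 1 µM for 24 h, with 3 libraries per group. The titles of the untreated libraries give no time. Bleogen pB1 is a cysteine-rich miniprotein from the cactus Pereskia bleo that the study describes as an agonist of the EGF receptor. No label says whether the 3 libraries of a group came from separate cultures, so that the p-values measure the spread between these libraries, which may be technical.

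D-type cyclins are made in response to growth factors and activate CDK4 and CDK6, which phosphorylate the retinoblastoma protein RB1 and release the E2F transcription factors. E2F factors in turn drive the genes of the E-type cyclins, which activate CDK2, and the genes of DNA synthesis. CIP/KIP proteins inhibit CDK2 complexes and bind cyclin D complexes, whereas INK4 proteins bind CDK4 and CDK6 directly and keep D-type cyclins off them. In the epidermis these inhibitors are known for holding back the growth of keratinocytes that leave the basal layer.

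The libraries held between 20288417 and 21320994 counted fragments, and all levels named CPM are counts scaled to library size after TMM scaling. All 10 keratinocyte markers examined, among them KRT5, KRT14 and TP63, exceeded 10 CPM in all 9 libraries. No fibroblast, melanocyte or endothelial marker exceeded 7.55 CPM in any library, and the highest immune marker was CD68 at up to 21.04 CPM. The summed fibroblast markers were at 7.62 to 9.31 CPM without treatment, at 1.25 to 2.00 CPM with EGF and at 6.08 to 9.17 CPM with bleogen pB1, and the summed endothelial markers at 3.44 to 4.78, 0.289 to 0.504 and 1.16 to 1.91 CPM in that order. The melanocyte sum was 6.73 to 9.12, 5.24 to 6.60 and 6.64 to 7.96 CPM, and the immune sum 11.7 to 12.5, 19.2 to 21.2 and 10.3 to 11.7 CPM. The part of these small sums in the results was not tested.

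EGF changed most of these genes, upward for CCND1, CCND3, CCNE1, CDK6 and CDKN1A and downward for CDKN1B and CDKN2C. Of the 9 tested genes, 7 passed the test for EGF against untreated (edgeR, adjusted p of at most 0.05), against a background of 66.1% of all tested genes. The 5 that rose were CCND1, CCND3, CDK6, CCNE1 and CDKN1A, where 32.4% of all genes rose, and the 2 that fell were CDKN1B and CDKN2C, where 33.6% of all genes fell. CCND3, CCNE1, CDKN1A, CDKN1B and CDKN2C were DEGs, which also require an absolute log2 fold change of at least 0.5, and 36.9% of all genes were DEGs. The share of the 9 that changed, 77.8%, stands beside a response across most of the transcriptome. Their median log2 fold change was 0.28, and that of all tested genes was -0.01. Bleogen pB1 changed 1 of the 9, CCND2, which fell. The count was 2 without EGF replicate 1, without EGF replicate 2 or without bleogen pB1 replicate 1. In those fits 958, 915 and 1549 of all tested genes were called, against 509 in the main fit. The 1 of 9 compares with 4.11% of all genes changed, 2.55% lower and 1.56% higher. None of the 9 was a DEG for bleogen pB1 with edgeR, DESeq2 or limma, and 1.48% of all genes were with edgeR. At an unadjusted p under 0.05 the edgeR fit held 4 of the 9, namely CCND2, CDKN1A, CCNE1 and CCNE2. The share of all tested genes at that unadjusted rule is not given here. This count and the later counts at that rule therefore have no background and cannot be set against the 4.11%. The median log2 fold change of the 9 for bleogen pB1 was 0.06, against 0.00 over all tested genes. Both comparisons use the same 3 untreated libraries and are therefore not independent of each other. In bulk RNA of this kind, fewer cells with a transcript and less of it per cell cannot be told apart.

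**Figure D1:**
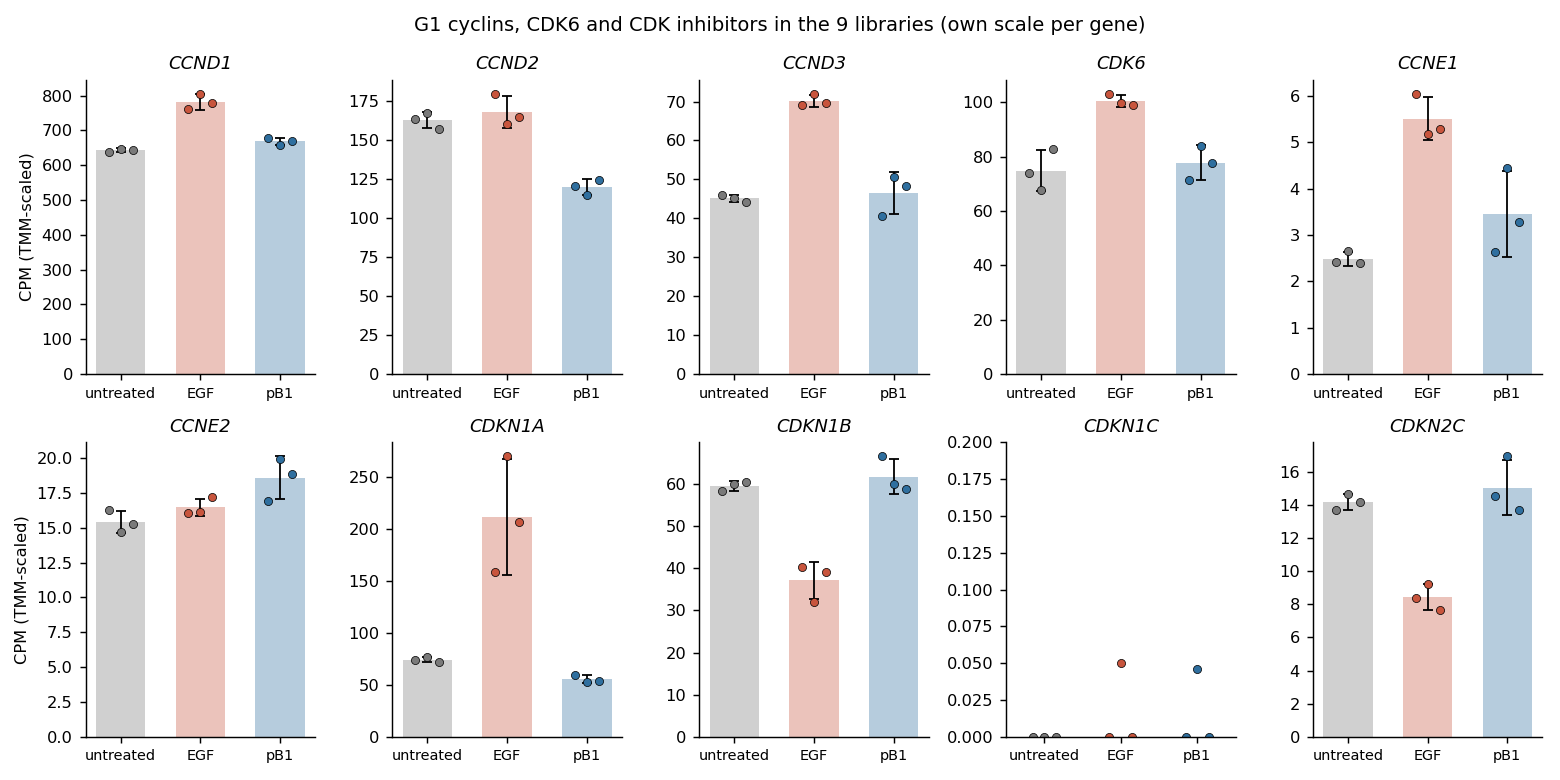
Level of each gene in CPM (y axis, starting at 0, own scale per gene) in the 3 untreated, 3 EGF-treated and 3 bleogen pB1-treated libraries; points are libraries, bars means and error bars SD, and CDKN1C is drawn as points alone. The EGF-treated points of CDKN1A spread from 158.2 to 269.5 CPM, all above the other 6, whereas those of CDKN1B lie between 32.0 and 40.2 CPM, all under the other 6.

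Among the D-type cyclins, EGF raised CCND1 and CCND3 and left CCND2 without a detectable change, whereas bleogen pB1 lowered CCND2. CCND1 encodes cyclin D1, the most studied growth-factor-responsive cyclin of epithelia, and lies on chromosome 11 (69641156 to 69654474, plus strand, GRCh38). Its untreated libraries held 637.6, 647.1 and 645.1 CPM. With EGF the values were 761.5, 805.5 and 779.7 CPM, and with bleogen pB1 677.1, 658.5 and 669.5 CPM. The EGF-treated libraries stood above all others, and the bleogen pB1-treated libraries lay narrowly above the untreated ones without overlap. EGF raised CCND1 by 0.28 on the log2 scale (SE 0.05, adjusted p = 0.00032 by edgeR), a 1.22-fold increase. For bleogen pB1 the log2 difference was 0.06, with a 95% interval from -0.07 to 0.18 and an adjusted p of 0.56 by edgeR.

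CCND2 encodes cyclin D2 (chromosome 12, 4269771 to 4305353, plus strand). It stood at 163.7, 167.6 and 157.1 CPM in untreated libraries. EGF-treated libraries held 179.7, 160.3 and 164.6 CPM, and bleogen pB1-treated libraries 120.5, 114.6 and 124.6 CPM. All 3 bleogen pB1 values were under all other values, while the EGF and untreated values overlapped. The log2 fold change for bleogen pB1 was -0.44 (SE 0.06, adjusted p = 0.0014 by edgeR), a level of 0.736 times the untreated one, and the call held in all the alternative fits, whose adjusted p ranged from 3.5e-09 to 0.014. For EGF the log2 difference was 0.05, with a 95% interval from -0.10 to 0.19, and its sign turned in several alternative fits.

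CCND3, for cyclin D3 (chromosome 6, 41934934 to 42050357, minus strand), held 45.9, 45.3 and 44.2 CPM in untreated libraries. The EGF-treated values were 69.0, 72.0 and 69.7 CPM. Those with bleogen pB1 were 40.5, 50.7 and 48.4 CPM and lay on both sides of the untreated ones. EGF raised CCND3 1.56-fold (log2 fold change 0.64, SE 0.08, adjusted p = 1.3e-05 by edgeR), the largest change among the D-type cyclins in this comparison, and all 3 EGF-treated libraries exceeded the other 6. For bleogen pB1 the log2 difference was 0.04, with a 95% interval from -0.15 to 0.24.

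CDK6, the kinase partner of the D-type cyclins (chromosome 7, 92604921 to 92836573, minus strand), was at 74.0, 67.9 and 82.6 CPM in untreated libraries. EGF brought it to 103.1, 99.7 and 99.0 CPM. The bleogen pB1 values of 71.5, 84.1 and 77.8 CPM overlapped the untreated ones, and those of EGF did not. The log2 fold change for EGF was 0.43 (SE 0.08, adjusted p = 0.00036 by edgeR), and for bleogen pB1 the difference was 0.06 with a 95% interval from -0.14 to 0.25.

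Levels of different genes were compared in FPKM, which divides by transcript length. CCND1 was the most abundant of the 10 genes in every group, at 153.3 ± 1.35 FPKM without treatment, 178.6 ± 5.64 FPKM with EGF and 161.2 ± 1.86 FPKM with bleogen pB1 (SD, n = 3 each). The 3 D-type cyclins summed to 201.4 ± 0.595 FPKM in untreated cells, 237.6 ± 5.28 FPKM after EGF and 203.9 ± 2.29 FPKM after bleogen pB1. CCND1 made up 76.1% ± 0.497 of that transcript sum in untreated cells. Its share was 75.2% ± 0.741 with EGF, where the groups overlapped (two-sided exact permutation test, p = 0.2). With bleogen pB1 it was 79.1% ± 1.16, above all untreated libraries (exact permutation p = 0.1, the smallest that 3 against 3 libraries allow). CCND2 made up 12.6% ± 0.338 without treatment, 10.6% ± 0.816 with EGF and 9.28% ± 0.327 with bleogen pB1. Its share was lower than untreated in all libraries of both treatments (exact permutation p = 0.1 each). CCND3 made up 11.3% ± 0.220 without treatment and 14.2% ± 0.0953 with EGF (exact permutation p = 0.1). With bleogen pB1 it made up 11.6% ± 1.29 (exact permutation p = 0.7). In FPKM, which carries no TMM scaling, the summed level of the bleogen pB1-treated libraries was 202.1 to 206.5. That of the untreated ones was narrowly lower, at 200.7 to 201.7 FPKM, and held more CCND2. The median log2 fold change of all genes for bleogen pB1 was 0.02 with limma on log2(FPKM + 1) and -0.001 in the edgeR fit. Whether so narrow a gap in the sum remains after TMM scaling was not tested.

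**Figure D2:**
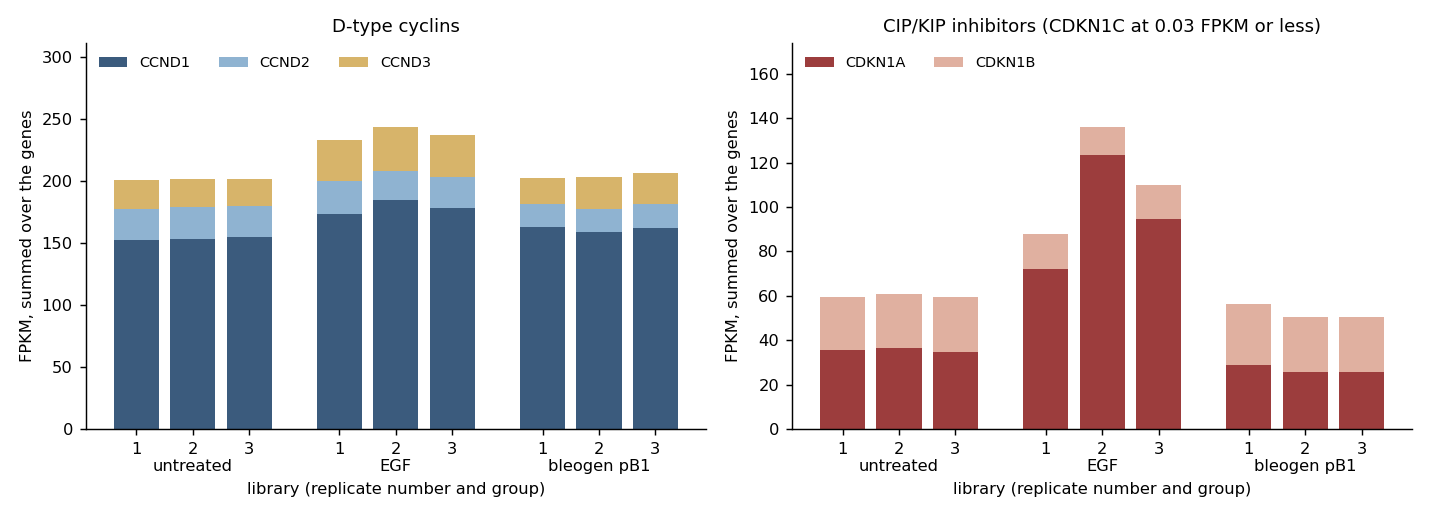
Summed level in FPKM (y axis, from 0) of the D-type cyclins (left) and of the CIP/KIP inhibitors (right) in each of the 9 libraries (x axis); colours mark the genes. The D-type cyclin stack is tallest in the EGF-treated libraries (232.7 to 243.2 FPKM) and CCND1 fills most of it, whereas the CDKN1A part of the right-hand stack is 82.1% to 90.7% with EGF and 50.6% to 51.4% with bleogen pB1.

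The E-type cyclins differed from each other in their response. CCNE1, for cyclin E1 (chromosome 19, 29811991 to 29824312, plus strand), was among the least abundant of the 10 genes, at 2.41, 2.65 and 2.39 CPM in untreated libraries. EGF-treated libraries held 6.05, 5.19 and 5.30 CPM. In bleogen pB1-treated libraries the values were 2.63, 4.45 and 3.28 CPM, of which that of replicate 1 fell within the untreated range and the others above it. EGF raised CCNE1 2.22-fold (log2 fold change 1.15, SE 0.20, adjusted p = 0.0002 by edgeR), with no overlap between the groups. The log2 difference for bleogen pB1 was 0.48 with a 95% interval from -0.02 to 0.97 and an adjusted p of 0.19 by edgeR. The interval holds 0 although the unadjusted p was under 0.05, as the edgeR test has more degrees of freedom than the interval. Without replicate 2 the log2 difference was 0.25 and without replicate 1 it was 0.64 (adjusted p = 0.051). The adjusted p ranged from 0.051 to 0.64 over the alternatives.

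CCNE2, for cyclin E2 (chromosome 8, 94879770 to 94896678, minus strand), was at 16.2, 14.7 and 15.2 CPM in untreated libraries. With EGF it was at 16.1, 16.2 and 17.2 CPM, which overlapped the untreated values. With bleogen pB1 it was at 16.9, 19.95 and 18.9 CPM, above all untreated libraries. The log2 difference for EGF was 0.10 (95% interval from -0.13 to 0.33, adjusted p = 0.36 by edgeR). For bleogen pB1 it was 0.27 (95% interval from 0.05 to 0.50, adjusted p = 0.11 by edgeR). It passed the test in 1 alternative, without bleogen pB1 replicate 1 (0.34, adjusted p = 0.038), over a range of 0.038 to 0.36. Per length, CCNE2 stood above CCNE1 in every group, at 5.82 against 1.33 FPKM without treatment, 5.96 against 2.84 FPKM with EGF and 7.12 against 1.87 FPKM with bleogen pB1.

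The CIP/KIP inhibitors moved in opposite directions with EGF. CDKN1A encodes p21, which binds cyclin-CDK complexes and the replication factor PCNA, and lies on chromosome 6 (36676460 to 36687337, plus strand). Untreated libraries held 74.1, 76.5 and 71.8 CPM. EGF-treated libraries held 158.2, 269.5 and 206.9 CPM, and bleogen pB1-treated libraries 59.5, 52.7 and 53.2 CPM. Every EGF-treated library was above every other library and every bleogen pB1-treated library was under every untreated one, with a spread among the EGF-treated libraries (SD 55.8 CPM) far wider than among the untreated (SD 2.35 CPM) or bleogen pB1-treated (SD 3.80 CPM) ones. EGF raised CDKN1A 2.85-fold, the largest change of the 9 genes in that comparison (log2 fold change 1.51, SE 0.14, adjusted p = 1.5e-06 by edgeR).

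Whether the decrease of CDKN1A with bleogen pB1 passed the test depended on the fit, for reasons that were not tested. Its log2 fold change was -0.43 (SE 0.14, 95% interval from -0.78 to -0.07), with an adjusted p of 0.11 in the edgeR fit of all 9 libraries, which shares 1 spread per gene over the groups. When edgeR was run on the 6 untreated and bleogen pB1-treated libraries alone, the fold change was the same and the adjusted p was 0.0028, and DESeq2 gave 0.033 on all 9 and 7.4e-06 on those 6 libraries. Without EGF replicate 1 or without EGF replicate 2 the adjusted p was 0.014 each, and over all the alternatives it ranged from 7.4e-06 to 0.32. The fold change lay between -0.40 and -0.49 throughout.

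CDKN1B encodes p27, an inhibitor of cyclin E-CDK2 that is high in resting cells, and lies on chromosome 12 (12685498 to 12722369, plus strand). It was at 58.3, 60.0 and 60.5 CPM in untreated libraries. EGF-treated libraries held 40.2, 32.0 and 39.1 CPM, and those with bleogen pB1 66.5, 60.0 and 58.8 CPM. The EGF-treated libraries were all under the others, and the bleogen pB1-treated ones overlapped the untreated ones. EGF lowered CDKN1B to 0.623 times the untreated level (log2 fold change -0.68, SE 0.09, adjusted p = 1.7e-05 by edgeR). For bleogen pB1 the log2 difference was 0.05, with a 95% interval from -0.15 to 0.26.

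CDKN1C, for p57 (chromosome 11, 2883213 to 2885775, minus strand), was listed with 1 count in EGF replicate 2 and 1 count in bleogen pB1 replicate 2 and with 0 counts in the other 7 libraries. A count of 0 allows a level of up to 3 counts, which was 0.139 to 0.151 CPM in these libraries, and no comparison was made.

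In FPKM, CDKN1A and CDKN1B summed to 59.9 ± 0.723 in untreated cells, 111.3 ± 24.0 after EGF and 52.4 ± 3.35 after bleogen pB1. The CDKN1A share of the family's FPKM was 59.3% ± 0.969 without treatment, 86.3% ± 4.32 with EGF and 51.0% ± 0.396 with bleogen pB1 (SD, n = 3 each). The 3 groups did not overlap, and each of the 3 pairwise comparisons had the smallest two-sided exact permutation p that 3 against 3 libraries allow, 0.1. By level, CDKN1A was the second most abundant of the 10 genes in every group, at 35.5 ± 0.860 FPKM in untreated and 96.8 ± 25.6 FPKM in EGF-treated cells. In bleogen pB1-treated cells it overlapped the next genes in order, at 26.8 ± 1.75 FPKM beside 25.7 ± 1.62 FPKM for CDKN1B, which in turn overlapped CCND3 at 23.7 ± 2.74 FPKM.

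The upstream sequences of the members with a single start site in the RefSeq promoter table are shown because these genes include the largest increases with EGF (CDKN1A and CCNE1) and a decrease (CDKN1B). Of the 10 genes, 6 had a promoter in that table. Each line gives the 150 bases before the start site on the plus strand of GRCh38.p14, at chr6:36678564-36678713 for CDKN1A, chr12:12717218-12717367 for CDKN1B and chr19:29811841-29811990 for CCNE1, with GC boxes (GGGCGG or CCGCCC) and the CCAAT box (CCAAT or ATTGG) in capitals.
CDKN1A: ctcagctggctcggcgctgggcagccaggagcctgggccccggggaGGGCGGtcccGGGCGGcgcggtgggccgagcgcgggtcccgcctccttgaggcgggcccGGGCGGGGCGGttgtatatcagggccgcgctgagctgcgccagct
CDKN1B: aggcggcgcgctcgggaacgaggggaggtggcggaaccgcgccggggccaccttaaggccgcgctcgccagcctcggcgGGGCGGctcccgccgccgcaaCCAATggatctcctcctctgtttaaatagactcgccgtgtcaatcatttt
CCNE1: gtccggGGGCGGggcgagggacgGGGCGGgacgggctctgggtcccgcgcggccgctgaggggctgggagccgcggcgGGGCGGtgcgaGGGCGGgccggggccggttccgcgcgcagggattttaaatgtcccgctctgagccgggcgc
CDKN1A held 4 GC boxes, starting 104, 94, 45 and 40 bases before the start site, of which the last pair share a base, and no CCAAT box. CCNE1 also held 4 GC boxes, starting 144, 127, 72 and 61 bases before its start. CDKN1B held 1 GC box at 71 bases and a CCAAT box at 50 bases before its start. In windows of this length, 36.8% of the 35116 human promoters in the table held a GC box and 23.5% a CCAAT box, on either strand. Searched on both strands, the E2F motif TTTCCCGC (in 0.869% of promoters), the cyclic AMP response element TGACGTCA (1.40%), the AP-1 motif TGACTCA (2.89%) and the forkhead motif GTAAACA (1.73%) had no match in these 3 windows. These matches are letters in a window and describe neither binding nor use.

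CDKN2C encodes p18, an INK4 inhibitor of CDK4 and CDK6, and lies on chromosome 1 (50960745 to 50974634, plus strand). Its untreated libraries held 13.7, 14.7 and 14.2 CPM. The EGF-treated values of 8.40, 9.21 and 7.65 CPM were under all others. With bleogen pB1 it was at 14.6, 16.9 and 13.7 CPM, which overlapped the untreated values. EGF lowered it to 0.594 times the untreated level (log2 fold change -0.75, SE 0.11, adjusted p = 7.5e-05 by edgeR), and for bleogen pB1 the log2 difference was 0.09 with a 95% interval from -0.18 to 0.35.

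The treatments were also compared with each other, which tests whether a gene differed between them. The doses differ (10 nM EGF and 1 µM bleogen pB1), so that this compares the 2 conditions and not the potency of the ligands. Of the 9 genes, 8 passed the test, where 58.2% of all genes did. CCND1, CCND2, CCND3, CDK6, CCNE1 and CDKN1A were higher with EGF (28.5% of all genes), and CDKN1B and CDKN2C were lower (29.7% of all genes). CCND3, CCNE1, CDKN1A, CDKN1B and CDKN2C were DEGs, as were 28.8% of all genes. The median log2 difference of the 9 genes was 0.37, against -0.01 over all tested genes. The widest difference was that of CDKN1A, 3.84-fold higher with EGF (log2 difference 1.94, SE 0.14, adjusted p = 2.9e-07 by edgeR). CCND2 was 1.40-fold higher with EGF (0.49, SE 0.06, adjusted p = 2.3e-05 by edgeR), where the EGF-treated libraries overlapped the untreated ones and the bleogen pB1-treated libraries were under both. CCNE2 had a log2 difference of -0.17, with a 95% interval from -0.40 to 0.05 and an adjusted p of 0.12 by edgeR. It passed in 5 of the alternative fits, with adjusted p over all of them from 0.023 to 0.34.

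**Figure D3:**
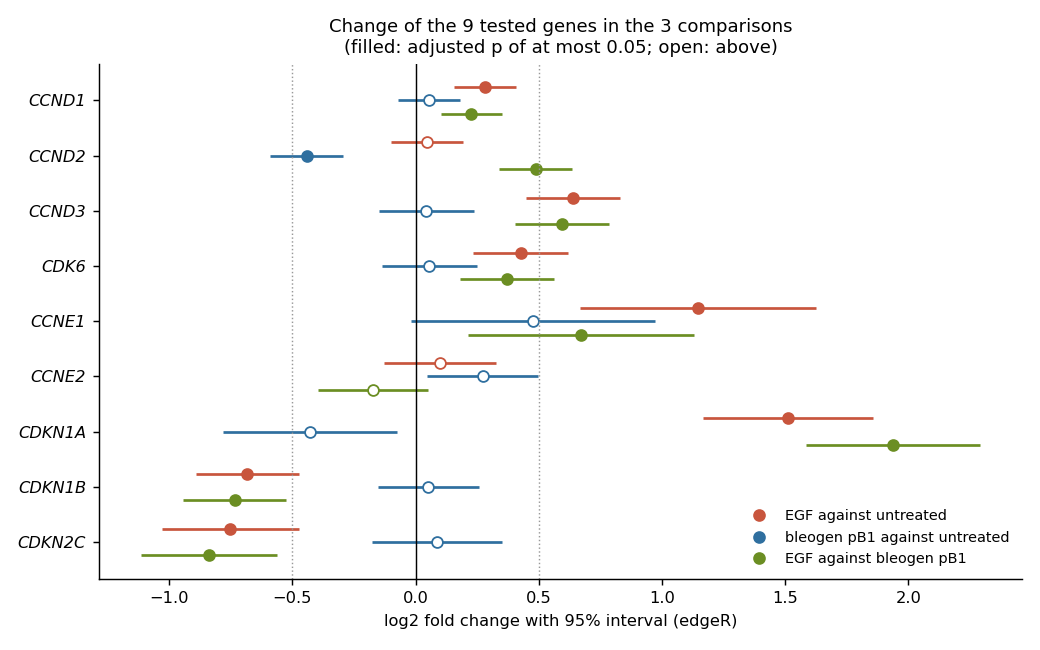
Log2 fold change (x axis) of the 9 tested genes (y axis) with 95% intervals for EGF against untreated, bleogen pB1 against untreated and EGF against bleogen pB1; filled points passed the test, open points did not, and dotted lines mark an absolute log2 fold change of 0.5. For bleogen pB1 the only filled point is CCND2 at -0.44, while for EGF the points run from -0.75 for CDKN2C to 1.51 for CDKN1A.

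The tested genes outside the list whose centred log2 CPM lay closest to that of CDKN1A over the 9 libraries were LIF, ARL14, SLC16A3, CD274 and TM4SF19, with root-mean-square differences of 0.15, 0.16, 0.18, 0.18 and 0.18. LIF, for example, had 14.4 ± 1.42 CPM without treatment, 47.7 ± 13.2 CPM with EGF and 11.5 ± 0.439 CPM with bleogen pB1 (SD, n = 3 each). SLC16A3 had 38.7 ± 1.86, 92.4 ± 14.4 and 31.0 ± 1.48 CPM in the same order. The likeness was measured over the same libraries in which CDKN1A varied and is a description.

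Other genes of G1 control were examined in 6 lists, of which 62 genes of 63 were tested. EGF changed 45 of them, 28 higher and 17 lower, and bleogen pB1 changed 9, of which 8 were higher and 1 lower. These are 72.6% of the 62 for EGF, beside 66.1% of all tested genes (32.4% higher and 33.6% lower), and 14.5% for bleogen pB1, beside 4.11% of all tested genes (1.56% higher and 2.55% lower). Among other G1 kinases, their phosphatase and the CDK-activating kinase, 5 of 7 rose with EGF and 1 fell, 85.7% changed beside the 66.1% of all tested genes. CDC25A, the phosphatase that removes the inhibitory phosphate from CDK2, rose from 22.8 to 47.6 CPM (log2 fold change 1.06, SE 0.09, adjusted p = 1.0e-06 by edgeR). CDK7 and CCNH, subunits of the CDK-activating kinase, rose by 0.64 and 0.60 on the log2 scale. MNAT1, its assembly subunit, did not pass, with a log2 difference of -0.32 (adjusted p = 0.089 by edgeR) and 46.6, 25.4 and 36.4 CPM in the EGF-treated libraries. CDK2 (0.27) and CDK4 (0.16), the kinases of the E-type and D-type cyclins, also rose, and CDK3 fell by 0.65. None of the 7 passed for bleogen pB1 with edgeR, which held 2 at an unadjusted p under 0.05, while DESeq2 called 2 and limma 0. As a background for these tools in all 6 lists, DESeq2 called 1028 of 16186 genes on all 9 libraries. It called 1216 of 15817 on the 6 libraries compared, while limma on log2(FPKM + 1) called 511 of 10961 and edgeR 509 of 12394. The DESeq2 totals hold every gene with a count and the limma and edgeR totals only filtered genes, so these shares are not alike. For bleogen pB1, CDC25A had a log2 difference of 0.37 with an adjusted p of 0.050 by edgeR, narrowly above the threshold. The list's median was 0.27 for EGF and 0.11 for bleogen pB1.

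The other INK4 genes did not move together with EGF. CDKN2B, for p15, was at 82.7, 80.2 and 75.9 CPM in untreated libraries and at 21.3, 25.1 and 24.5 CPM in EGF-treated ones, a fall of 1.75 on the log2 scale (SE 0.14, adjusted p = 3.1e-07 by edgeR). CDKN2A fell from 159.3 to 78.0 CPM (log2 fold change -1.03, SE 0.09). This gene encodes both p16 and the unrelated p14ARF, which gene-level counts do not separate. CDKN2D, for p19, rose instead, from 4.92, 6.39 and 5.83 CPM to 13.1, 22.2 and 18.8 CPM (log2 fold change 1.66, SE 0.23, adjusted p = 4.0e-05 by edgeR). With bleogen pB1 none of the 3 passed with edgeR (2 at an unadjusted p under 0.05, 1 called by DESeq2, 0 by limma), with log2 differences of -0.40 for CDKN2B, -0.19 for CDKN2A and 0.22 for CDKN2D. CDKN2A and CDKN2B overlap the antisense gene CDKN2B-AS1, and although the libraries were made with a strand-marking protocol per the labels, whether the counting used strand is not given in the sources used here.

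Among RB pocket proteins, E2F and DP factors, 8 of 13 rose with EGF and 4 fell, 92.3% changed beside the 66.1% of all tested genes. RBL2, for the pocket protein p130 of resting cells, fell from 107.7 to 43.1 CPM (log2 fold change -1.32, SE 0.13, adjusted p = 1.8e-06 by edgeR). The others that fell were E2F2 (-0.85), TFDP2 (-0.58) and RBL1 (-0.43, adjusted p = 0.031 by edgeR). RBL1 held 56.8, 29.4 and 41.8 CPM with EGF, which overlapped the 60.1, 53.4 and 59.4 CPM of untreated libraries. The number that fell was 3 with DESeq2 on the 6 libraries compared and 5 with limma. In both directions, these fits called 7722 of 15859 unfiltered genes and 7406 of 10961 filtered genes. The share of all genes that fell in them is not given here. E2F5 rose by 0.98 and RB1 itself by 0.42. The list's median was 0.42 for EGF, against -0.01 over all tested genes, and 0.17 for bleogen pB1, against -0.001. With edgeR on all 9 libraries, E2F1, an activator of S-phase genes, passed for bleogen pB1, 1 of 13 (7.69%, beside 4.11% of all tested genes), while DESeq2 called 3 on all 9 and 4 on the 6 libraries compared, and limma called 2. It was at 28.0, 26.5 and 27.7 CPM in untreated libraries and at 32.6, 39.7 and 35.1 CPM in bleogen pB1-treated ones (log2 fold change 0.39, SE 0.08, adjusted p = 0.019 by edgeR), and at 37.1, 37.3 and 36.8 CPM in EGF-treated ones (0.44). The list's count for bleogen pB1 was 0 without any 1 of the untreated libraries or without bleogen pB1 replicate 2 or 3, and 4 without bleogen pB1 replicate 1. It was 3 without EGF replicate 1 and 3 without EGF replicate 2. Over all tested genes the calls for bleogen pB1 ranged from 140 to 1549 when single libraries were left out, against 509. Of all genes DESeq2 called 1028 on all 9 and 1216 on the 6 libraries compared, and limma on log2(FPKM + 1) called 511.

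Of the ubiquitin ligase parts that act on G1 cyclins and CIP/KIP inhibitors, 3 of 13 rose with EGF and 2 fell, 38.5% changed beside the 66.1% of all tested genes. The count was 8 of 13 with upper-quartile factors, where 8216 of 12394 genes were called, against 8187 in the main fit. How far this list differs from all genes thus depended on the scaling. With bleogen pB1 none of the 13 passed with edgeR (3 at an unadjusted p under 0.05, 1 called by DESeq2, 0 by limma). AMBRA1, the substrate receptor that directs D-type cyclins to degradation, fell from 45.1 to 21.8 CPM (log2 fold change -1.05, SE 0.13, adjusted p = 1.2e-05 by edgeR), and FBXO4, an F-box protein, fell by 0.86 on the log2 scale. CKS1B, a cofactor of the ligase that degrades p27, rose by 0.43, and CUL4A and DTL by 0.28 and 0.30. SKP2, the F-box protein for p27, had a log2 difference of 0.04 and did not pass. The list's median was -0.05 for EGF and 0.02 for bleogen pB1.

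Of the FOXO factors and growth-arrest genes, 6 of the 9 tested fell with EGF and KLF4 rose (0.69), 77.8% changed beside the 66.1% of all tested genes, of which 33.6% fell. FOXO factors are transcription factors that growth factor signalling keeps out of the nucleus, and CDKN1B is a known target. FOXO4 fell by 1.24 and FOXO1 by 0.94 on the log2 scale, and TXNIP, an inhibitor of thioredoxin, fell from 456.3 to 157.5 CPM (log2 fold change -1.53, SE 0.23, adjusted p = 8.4e-05 by edgeR). The list's median was -0.49 for EGF and -0.24 for bleogen pB1. With edgeR on all 9 libraries FOXO3 passed for bleogen pB1, 1 of 9 beside 4.11% of all tested genes, while DESeq2 called 3 lower on all 9 and 4 lower on the 6 libraries compared, and limma called 1. It went from 119.8, 116.9 and 124.9 CPM untreated to 101.8, 74.5 and 91.3 CPM (-0.43, SE 0.09, adjusted p = 0.024 by edgeR). The count was 0 without any 1 untreated library or without bleogen pB1 replicate 3, 4 without EGF replicate 1 or bleogen pB1 replicate 1, and 3 without EGF replicate 2. Over all tested genes the calls for bleogen pB1 ranged from 140 to 1549 when single libraries were left out, against 509. Of all genes DESeq2 called 1028 on all 9 and 1216 on the 6 libraries compared, and limma on log2(FPKM + 1) called 511.

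The E2F-driven S-phase genes lie downstream of the cyclins and inhibitors described above. EGF raised 10 of the 17 and lowered 2, MCM3 and MCM5, with a median of 0.25. The 12 are 70.6% of the list, near the 66.1% of all tested genes. RRM2, a subunit of ribonucleotide reductase, rose the most, from 181.2, 183.0 and 196.5 CPM to 377.8, 333.7 and 351.5 CPM (log2 fold change 0.92, SE 0.10, adjusted p = 6.7e-06 by edgeR). CDC45 and CDC6, which act in the start of DNA replication, rose by 0.67 and 0.60. Bleogen pB1 raised 7 of the 17 and lowered none with edgeR (none lower at an unadjusted p under 0.05, nor with DESeq2 or limma), with a median of 0.23, against 0.00 over all tested genes. The 7 are 41.2% of the list, beside 4.11% of all tested genes changed and 1.56% higher. DESeq2 called 11 on all 9 and 12 on the 6 libraries compared, and limma called 7. Over all genes DESeq2 called 1028 of 16186 on all 9 and 1216 of 15817 on the 6 libraries. Limma on log2(FPKM + 1) called 511 of 10961, and edgeR 509 of 12394. The DESeq2 totals are of unfiltered genes, those of limma and edgeR of filtered genes. The fitted values of all 17 lay above 0, from 0.06 to 0.44, so none reached the 0.5 of a DEG. The 7 were MCM2 (0.23), MCM4 (0.34) and MCM6 (0.26), subunits of the replicative helicase, CDC45 (0.41), the ribonucleotide reductase subunits RRM1 (0.32) and RRM2 (0.44), and TYMS (0.27), the enzyme of thymidylate synthesis. Their adjusted p ranged from 0.014 for MCM4 to 0.050 for MCM6 (edgeR), all near the threshold.

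This count for bleogen pB1 depended on single libraries. It was 0 without untreated replicate 1, without untreated replicate 2, without bleogen pB1 replicate 2 or without bleogen pB1 replicate 3. It was 1 without untreated replicate 3 or EGF replicate 3, and 11 without bleogen pB1 replicate 1. The calls over all tested genes moved as well, from 509 to 140 without untreated replicate 1 or bleogen pB1 replicate 3. They numbered 204 without untreated replicate 2 and 202 without bleogen pB1 replicate 2. Without untreated replicate 3 they were 213, without EGF replicate 3 they were 244, and without bleogen pB1 replicate 1 they were 1549. RRM2 was at 209.5, 301.1 and 250.5 CPM in the 3 bleogen pB1-treated libraries, all above the untreated ones, the lowest in replicate 1. CCNE1, CCNE2, E2F1 and CDC45 (54.0, 70.9 and 64.1 CPM) had the same order among these libraries, with replicate 1 lowest and replicate 2 highest. These genes were picked after their values were seen, and the order was not particular to them. CCND3 and CDK6 also had it, whereas the S-phase genes MCM2 (290.8, 304.6 and 309.8 CPM) and MCM5 (158.0, 154.2 and 160.4 CPM) did not. Between the treatments, 7 of the 17 S-phase genes differed, 41.2% beside 58.2% of all tested genes, with 3 higher and 4 lower in the EGF-treated cells, a median of 0.01 and no DEG by edgeR, DESeq2 or limma.

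**Figure D4:**
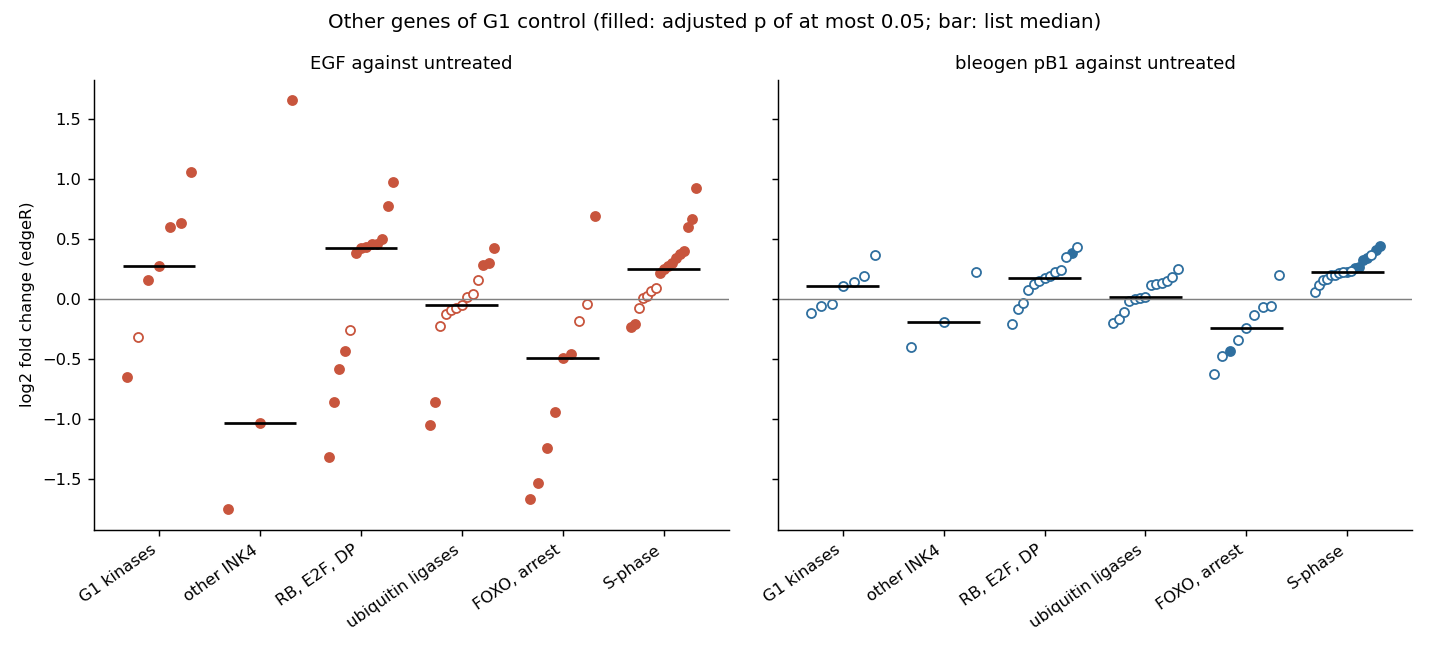
Log2 fold change (y axis, same scale in both panels) of each tested gene of the 6 lists of G1 control (x axis) for EGF against untreated (left) and bleogen pB1 against untreated (right); filled points passed the test, open points did not, and bars are list medians. For bleogen pB1 all S-phase points lie above 0, with a median of 0.23. The medians of the other lists in that panel run from -0.24 (FOXO factors and growth-arrest genes) to 0.17 (RB pocket proteins, E2F and DP factors), with few filled points.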

How the data were processed

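Oligo-dT-selected RNA of 9 HaCaT samples was made into strand-marked libraries and sequenced by BGI, and reads were mapped to GRCh38.p12 per the labels; the quantifier and its version are not given in the sources used here. The labels and the methods of the study name different RNA kits and sequencers. Deposited by the authors were expected counts, which estimate the fragments of each gene without scaling, and FPKM values, in which the authors divided them by effective transcript length and library size. A gene not listed in a library was taken as 0. Samples were grouped by title and treatment label. The 9 files each hold 1 library.

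After rounding, the expected counts entered edgeR 4.0.16 (R 4.3.3; filterByExpr, TMM, quasi-likelihood test, all 9 libraries in 1 fit with 6 residual degrees of freedom, Benjamini-Hochberg adjustment over 12394 genes). Intervals are 95% t intervals on those 6 degrees. The quasi-likelihood test adds degrees of freedom from the spread of all genes, so the intervals are wider than the test. An interval that holds 0 can therefore stand beside an unadjusted p under 0.05. Shares were compared by two-sided exact permutation tests. The limits for a count of 0 cover counting error only. Alternatives used DESeq2 1.42.0, limma 3.58.1 on log2(FPKM + 1) or log2(FPKM + 0.1), other scalings, filters and library subsets. The edgeR procedure was tested on simulated data. Gene positions are from GENCODE release 44, and promoter sequences from RefSeq.

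The genes, lists and tests were chosen with earlier results of these data known. Named were all 10 genes, the 3 genes of each list that had the lowest adjusted p for EGF plus those that passed for bleogen pB1, and the 5 genes most like CDKN1A. CDK2, CDK4, CDK3, E2F2, RBL1, RB1, CUL4A, DTL, SKP2, KLF4, MCM3 and MCM5 and the sequence motifs were chosen after their values or matches were seen. Some list genes are not reported here.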

Additional observations from a re-analysis of the deposited data

How the results depend on the processing

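The counts of G1 genes changed by EGF and between the treatments kept within 1.5 times the reported ones in all alternatives except the DEG rule between the treatments, with 5 against 8. For bleogen pB1 the count of 1 became 2 with DESeq2 on all 9 or on the 6 libraries, with edgeR on the 6 libraries, and ranged from 1 to 2 when single libraries were left out; it was 0 with the DEG rule. Signs turned in 12 fits, each with a value under 0.06 in size. For CCND2 with EGF the log2 fold change was -0.0579 with upper-quartile factors, -0.0102 without scaling factors, -0.0139 with limma at a pseudocount of 1 with or without the FPKM filter, -0.0144 at 0.1, and -0.00134 to 0.0887 without single libraries. CCNE2 with EGF was at -0.00523 with upper-quartile factors. With bleogen pB1 and single libraries left out, CCND3 ranged from -0.0252 to 0.134, CDK6 from -0.0098 to 0.133, CDKN1B from -0.00378 to 0.0852 and CDKN2C from -0.010 to 0.15. The cause was not tested. Upper-quartile factors moved the median of all genes for EGF to -0.12. With CPM in place of FPKM, which weights longer transcripts, the CCND1 share changed by 1.06 points with EGF and by 4.49 points with bleogen pB1, against -0.95 and 2.96.

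Alternatives for the 6 lists were added after the data were seen. The list genes changed by bleogen pB1 numbered 21 with DESeq2 on all 9 libraries, 24 on 6, 15 with edgeR on 6, 2 with limma without a filter, 0 as DEGs, and 0 to 23 when single libraries were left out (0 without untreated replicate 1 or 2 or bleogen pB1 replicate 3, and 23 without bleogen pB1 replicate 1), against 9; the DEG rule left 22 for EGF and 17 between the treatments. Of all genes, bleogen pB1 changed 1028 with DESeq2 on all 9, 1216 on 6, 841 with edgeR on 6, 222 with limma without a filter, and 140 to 1549 without single libraries, against 509.

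Same-numbered libraries deviated together with correlations of 0.004 to 0.045 for EGF, -0.03 to 0.207 for bleogen pB1 and 0.027 to 0.056 between the treatments, so the numbers were not taken as pairs. With the replicate block the S-phase genes changed by bleogen pB1 numbered 4 against 7, where 480 of all genes were called against 509. The total of the lists stayed within 1.5 times, and CCND2 with bleogen pB1 had a log2 fold change of -0.44 (adjusted p = 0.0031, edgeR). Genes of a few counts, such as CDKN1C, are limited by depth.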
